A study of Mus musculus with 12 samples.

Results

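Acyl-CoA synthetases are the enzymes that join a fatty acid to coenzyme A before it can be burned, stored or built into other molecules. The 10 genes described here were taken by name from the 56748 genes of the count table. They are the long-chain synthetases Acsl1, Acsl3, Acsl4 and Acsl5, the medium-chain synthetases Acsm1, Acsm3 and Acsm5, the short-chain synthetases Acss2 and Acss3, and Acsf2, a mitochondrial family member that prefers medium-chain acids. RNA was sequenced from whole livers of mice that had all been fasted for 24 h. The 12 livers fall into 3 genotypes of 4 livers each. The WT livers came from control mice labeled as triple floxed for CPT1A, CPT1B and CPT2, the SKO livers carried a liver-specific CPT2 knockout, and the DKO livers carried a liver-specific double knockout of ATF3 and CPT2. The liver KOs were made with Albumin-Cre on C57BL6 lines, in which the albumin promoter, active mainly in hepatocytes, drives Cre, so other cells of the whole liver may keep their alleles. The labels give no age, and nothing in them says that the livers of a genotype came from separate litters or days, so p-values measure the spread between these livers.

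A free fatty acid cannot enter beta-oxidation, triglyceride synthesis or phospholipid synthesis until a synthetase has made its CoA ester, and each synthetase prefers a range of chain lengths and sits on particular membranes. Long-chain acyl groups then need CPT1 and CPT2 to cross into mitochondria as carnitine esters, whereas medium-chain acids can enter freely and are activated inside. The liver relies on these steps during a fast, when it takes up fatty acids from adipose tissue and turns them into ketone bodies.

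Total counts ran from 14710304 to 20030055 per liver, so 3 counts, taken as the limit for a gene without counts, stand for 0.145 to 0.196 CPM, which are counts scaled by library size. Cpt2 was at 235 ± 25.0 CPM in WT, 126 ± 22.4 CPM in SKO and 118 ± 11.3 CPM in DKO (SD, n = 4). Atf3 was at 1.56 ± 0.49 CPM in WT, 30.4 ± 16.6 CPM in SKO and 8.16 ± 5.75 CPM in DKO (SD, n = 4). A pair of livers stood apart from the rest. SKO replicate 3 held 18063 counts of Xist and 2 counts of 4 Y-linked genes, DKO replicate 4 held 20855 and 0, and the other 10 livers held at most 19 counts of Xist and at least 2741 Y-linked counts, while the study describes its sequenced mice as males. DKO replicate 4 had Cpt2 at 102 CPM and Atf3 at 0.271 CPM, the lowest DKO values and below all WT livers, so both deleted genes ran with its label. The other 3 DKO livers had Atf3 at 7.93 to 13.7 CPM, below all SKO livers and above all WT livers, which reached 2.16 CPM. It also had Apoa4 at 506 CPM, within the WT range of 374 to 870 CPM and below the other DKO livers, and the highest sum of 8 hepatocyte markers of all 12 livers. Both livers were kept in the main comparisons, and values without DKO replicate 4 are given beside the results it moved most.

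The 3 genes with the largest falls in SKO livers were Acsm1, Acsm5 and Acss2, and stretches upstream of their RefSeq starts are shown because the results turn on these genes. The letters are those of RefSeq promoters on GRCm38.p6, which matched 9 of the 10 genes, each stopped where a GENCODE exon begins. They lie on the plus strand and are written 5′ to 3′ with matches to any of 7 motifs in capitals. The Acsm1 stretch, chr7:119617562-119617780, and the Acsm5 stretch, chr7:119526015-119526207, lie between exons of longer annotated transcripts of the same gene, and the Acss2 stretch, chr2:155517793-155517947, lies directly before the gene.
Acsm1: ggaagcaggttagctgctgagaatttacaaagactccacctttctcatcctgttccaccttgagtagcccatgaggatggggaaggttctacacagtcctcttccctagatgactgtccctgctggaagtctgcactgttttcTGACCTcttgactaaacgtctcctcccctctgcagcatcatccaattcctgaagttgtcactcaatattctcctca
Acsm5: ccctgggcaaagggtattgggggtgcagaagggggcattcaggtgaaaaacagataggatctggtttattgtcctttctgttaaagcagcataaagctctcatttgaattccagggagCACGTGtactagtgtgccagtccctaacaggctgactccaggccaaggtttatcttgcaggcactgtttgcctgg
Acss2: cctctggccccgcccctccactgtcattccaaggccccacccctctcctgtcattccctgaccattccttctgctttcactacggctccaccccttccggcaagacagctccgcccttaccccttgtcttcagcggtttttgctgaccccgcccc
The capitals mark a nuclear receptor hexamer, AGGTCA read on the opposite strand, at position -107 from the RefSeq start of Acsm1, and an E-box, CACGTG, at position -132 from that of Acsm5. Over 32851 promoters of 300 bases, searched on both strands, 16.3% held the hexamer and 7.15% held the E-box. The other motifs searched were the DR1 element, in which the hexamer follows itself after a single base, the sterol response element TCACNCCAC, the AP-1 site TGANTCA, the cyclic AMP response element TGACGTCA and the C/EBP-ATF composite site TGATGNAA. They were held by 0.0396%, 1.24%, 7.81%, 1.79% and 3.97% of promoters. Among the 10 promoters of the 9 matched genes, the only further match was a sterol response element in the second promoter of Acsl1, at position -76. These are matches of letters, not measured binding.

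Levels were compared between genes as RPKM, which are counts scaled by gene length and by TMM library size over the 12 livers. In WT livers Acsl1 was the most abundant of the 10 at 159 ± 33.9 RPKM, followed by Acsm1 at 104 ± 22.4 and Acsf2 at 83.5 ± 8.37 RPKM (SD, n = 4). Acsl5 at 42.7 ± 4.97, Acsm5 at 39.8 ± 3.47 and Acsm3 at 22.5 ± 1.34 RPKM held the middle of the order. Acsl4 at 10.4 ± 1.17, Acss2 at 10.2 ± 1.16, Acss3 at 4.94 ± 0.86 and Acsl3 at 2.96 ± 1.01 RPKM were the least abundant. The ranges of neighbors overlapped for Acsm1 and Acsf2, for Acsl5 and Acsm5, for Acsl4 and Acss2, and for Acss3 and Acsl3. Acsl1 was also first in SKO and DKO livers, with no overlap with the next gene. In SKO livers Acsm1 stood at rank 4, below Acsl5, and its range did not overlap with that of Acsl5. The deposited FPKM gave the same order of mean levels for all 10 genes in each genotype. They rest on the same counts and gene lengths with another constant per liver, so this is no separate check of the order.

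**Figure D1:**
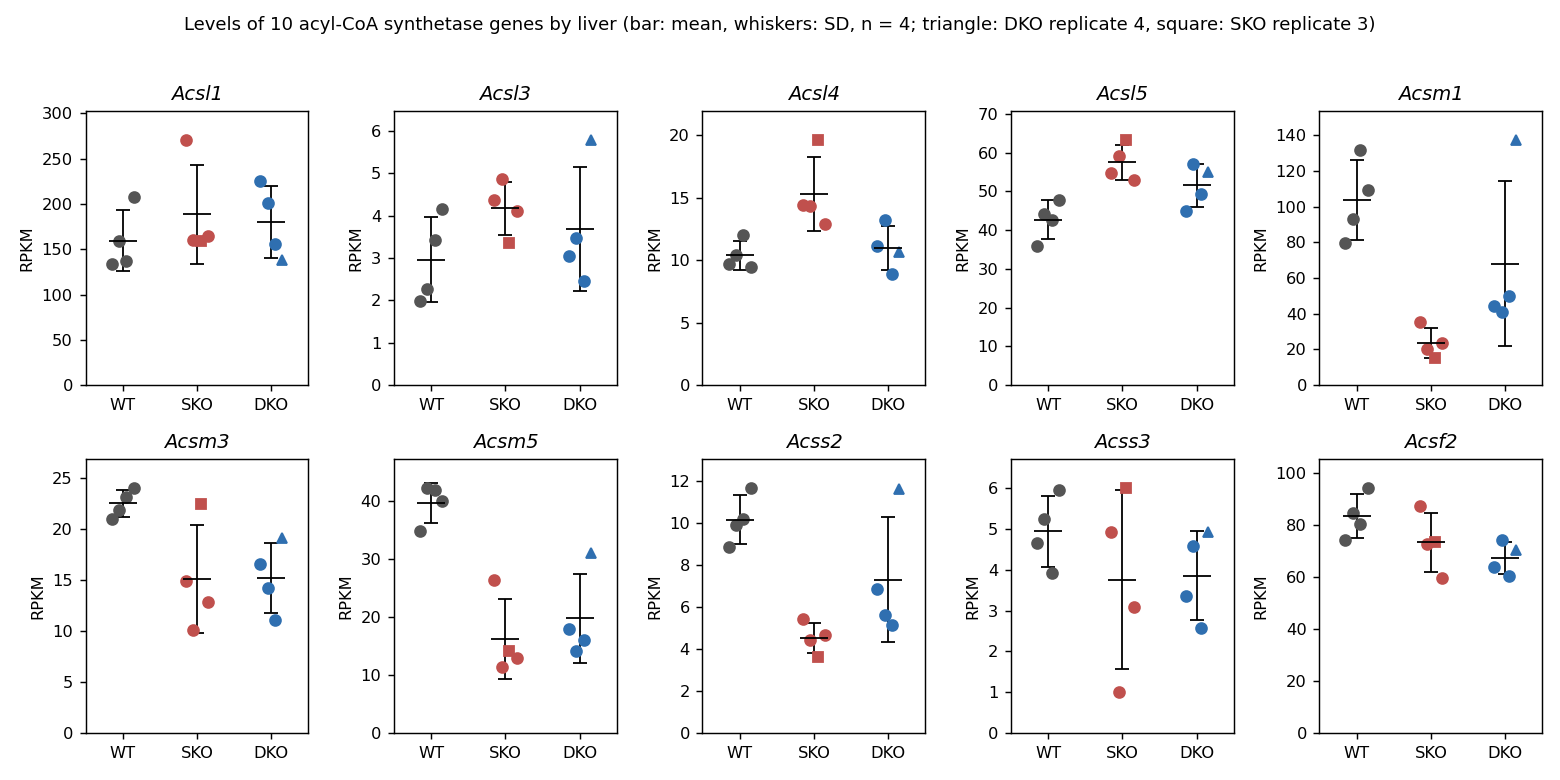
Level of each of the 10 acyl-CoA synthetase genes in each liver, in RPKM on linear axes that start at 0, by genotype. Points are livers, bars and whiskers are the mean and SD of 4 livers, triangles mark DKO replicate 4 and squares mark SKO replicate 3. Acsm1, Acsm5 and Acss2 are lower in all 4 SKO livers than in any WT liver, and the DKO triangle for Acsm1 at 137 RPKM lies above the other DKO livers at 40.8 to 50.1 RPKM.

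SKO livers were compared with WT livers for the effect of losing Cpt2 in the liver of fasted mice. Of the 10 genes, 5 passed the test, with Acsm1, Acsm5 and Acss2 lower and Acsl4 and Acsl5 higher in SKO livers. The largest change was the 4.35-fold fall of Acsm1. In this comparison 32.1% of the 14261 genes tested passed the quasi-likelihood test of edgeR at an adjusted p-value of 0.05, 16.7% higher and 15.4% lower, so 2 genes of 10 called higher lies near the share of all genes. The 5 genes that passed were also those whose groups did not overlap, which was the case for 33% of all genes tested. The median log2 fold change was -0.28 over the 10 genes and 0.031 over all genes.

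The DKO livers were set against these WT livers and, for the effect of losing Atf3 in addition to Cpt2, against these SKO livers, so the 3 comparisons share livers and are not independent. Against WT, 1 of the 10 genes passed, Acsm5, which was lower, while 10.5% of 14448 genes tested passed, 6.06% higher and 4.39% lower. Without DKO replicate 4, 4 of the 10 genes passed, all lower (Acsm1, Acsm3, Acsm5 and Acss2), while 35.9% of 14634 genes passed, 17.5% lower. Against SKO, 0 of the 10 genes passed and 3 of 14363 genes tested did, or 0.0209%, and without DKO replicate 4 again 0 of the 10 and 0.103% of all genes passed. At an unadjusted p-value under 0.05 the DKO and SKO livers differed in 3 of the 10 genes, Acsm1, Acsl4 and Acss2, and in 6.49% of all genes, and DESeq2 called 1 of the 10, Acsm1, and 97 of all genes, or 0.675%. Without DKO replicate 4 the 3 genes under that unadjusted limit were Acsm1, Acsl4 and Acsl3, beside 7.22% of all genes.

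**Figure D2:**
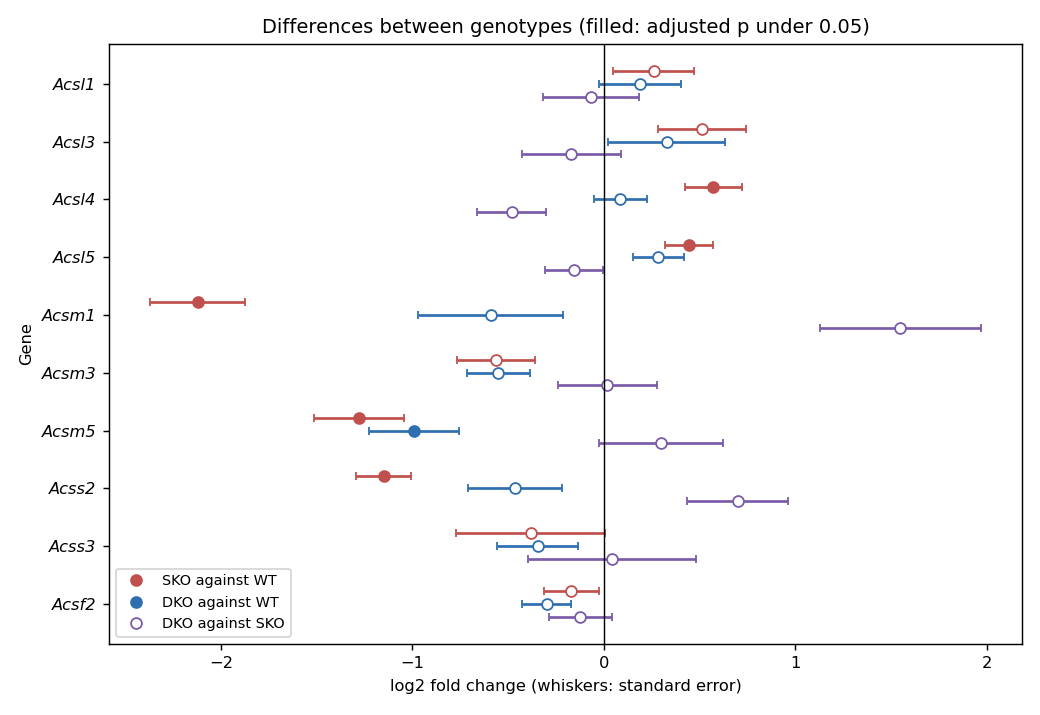
Log2 fold change of each of the 10 genes in the 3 comparisons, with the standard error as whiskers. Filled points passed an adjusted p-value of 0.05, namely Acsl4, Acsl5, Acsm1, Acsm5 and Acss2 in SKO against WT and Acsm5 in DKO against WT, and all points of DKO against SKO are open.

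The medium-chain synthetases activate medium-chain fatty acids, and some of them also benzoate and related acids, in the mitochondrial matrix, and the 3 genes lie near each other on the plus strand of chromosome 7 (GRCm38). Acsm1 (ENSMUSG00000033533, chr7:119607026-119662515) was at 79.8, 93.2, 132 and 109 RPKM in the WT livers. It was at 35.2, 20.3, 15.2 and 23.4 RPKM in the SKO livers. It was at 44.5, 40.8, 50.1 and 137 RPKM in the DKO livers. Every SKO liver lay below every WT liver and every DKO liver, and the DKO livers apart from replicate 4 lay between the other 2 genotypes without touching either. Acsm1 fell by 2.12 on the log2 scale in SKO against WT (SE 0.25, adjusted p = 7.9e-05). Against WT, the DKO livers had a log2 fold change of -0.59 (SE 0.38, adjusted p = 0.332), and without DKO replicate 4 it was -1.19 (SE 0.17, adjusted p = 2.7e-04). Against SKO it was 1.55 with a 95% interval of 0.61 to 2.48 and did not pass (SE 0.42, unadjusted p = 0.0041, adjusted p = 0.455), although the groups did not overlap, as was so with DKO higher for 2.31% of all genes. DESeq2 gave 1.53 with an adjusted p = 0.0330 for this difference. Without DKO replicate 4 it was 0.93 with an interval of 0.41 to 1.45 (adjusted p = 0.280). With SKO replicate 3 left out as well it was 0.77 (adjusted p = 0.337). The settings tried gave adjusted p-values of 0.0330 to 0.936 for this difference.

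Acsm5 (ENSMUSG00000030972, chr7:119519463-119545551), in the same stretch of chromosome 7, was at 34.8, 42.3, 42.0 and 40.0 RPKM in the WT livers. It was at 26.3, 11.5, 14.1 and 12.9 RPKM in the SKO livers, where replicate 1 was the highest. It was at 17.9, 14.2, 16.1 and 31.1 RPKM in the DKO livers, where replicate 4 was the highest. All livers of both knockout genotypes lay below all WT livers. Acsm5 fell by 1.28 on the log2 scale in SKO against WT (SE 0.23, adjusted p = 0.00152). It fell by 0.99 in DKO against WT (SE 0.23, adjusted p = 0.0307). This call was lost when any 1 of the 7 livers other than DKO replicate 4 was left out, with adjusted p-values of 0.0682 to 0.0923. The log2 fold change was then -1.07 to -0.86. Without DKO replicate 4 Acsm5 fell by 1.30 (adjusted p = 1.7e-05). The difference between DKO and SKO was 0.30 with an interval of -0.42 to 1.01, and without DKO replicate 4 it was -0.020 with an interval of -0.59 to 0.55.

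Acsm3 (ENSMUSG00000030935, chr7:119760923-119787513) was at 21.1, 21.9, 23.2 and 24.1 RPKM in the WT livers. It was at 14.97, 10.1, 22.5 and 12.8 RPKM in the SKO livers and at 16.6, 14.2, 11.1 and 19.1 RPKM in the DKO livers. The DKO livers all lay below the WT livers, and so did the SKO livers apart from replicate 3. The log2 fold change in SKO against WT was -0.56 and missed the threshold (SE 0.20, adjusted p = 0.0521). Without SKO replicate 3, which had 2 Y-linked counts, it was -0.81 and passed (adjusted p = 0.00163). It also passed with RLE scaling, without the filter, with DESeq2 and with limma, at adjusted p-values of 0.0463, 0.0211, 0.0249 and 0.0377, but not with all 12 livers in the fit (adjusted p = 0.0700). For DKO against WT it was -0.55 (SE 0.17, adjusted p = 0.0608, or 0.0199 with DESeq2), and without DKO replicate 4 it was -0.68 and passed (adjusted p = 0.00266). The difference between DKO and SKO livers was 0.018 with an interval of -0.56 to 0.59, and it was -0.12 with DKO replicate 4 left out.

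Summed over all Acsm genes, the medium-chain synthetases came to 166 ± 26.0 RPKM in WT, 54.9 ± 15.04 in SKO and 103 ± 56.4 in DKO (SD, n = 4). Acsm1 made up 61.9 ± 3.79% of this sum in WT, 42.8 ± 9.02% in SKO and 63.3 ± 7.48% in DKO, and it was the largest contributor in every WT and DKO liver. Its SKO share ranged from 29.3 to 48.3% and its WT share from 58.7 to 66.9%, without overlap. The share of Acsm3 was 13.8 ± 1.54% in WT and 28.3 ± 10.4% in SKO livers, while its level was lower in the SKO mean. The sum in DKO replicate 4 was 188 RPKM, within the WT range of 136 to 197 RPKM, and the SKO livers reached at most 76.6 RPKM.

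**Figure D3:**
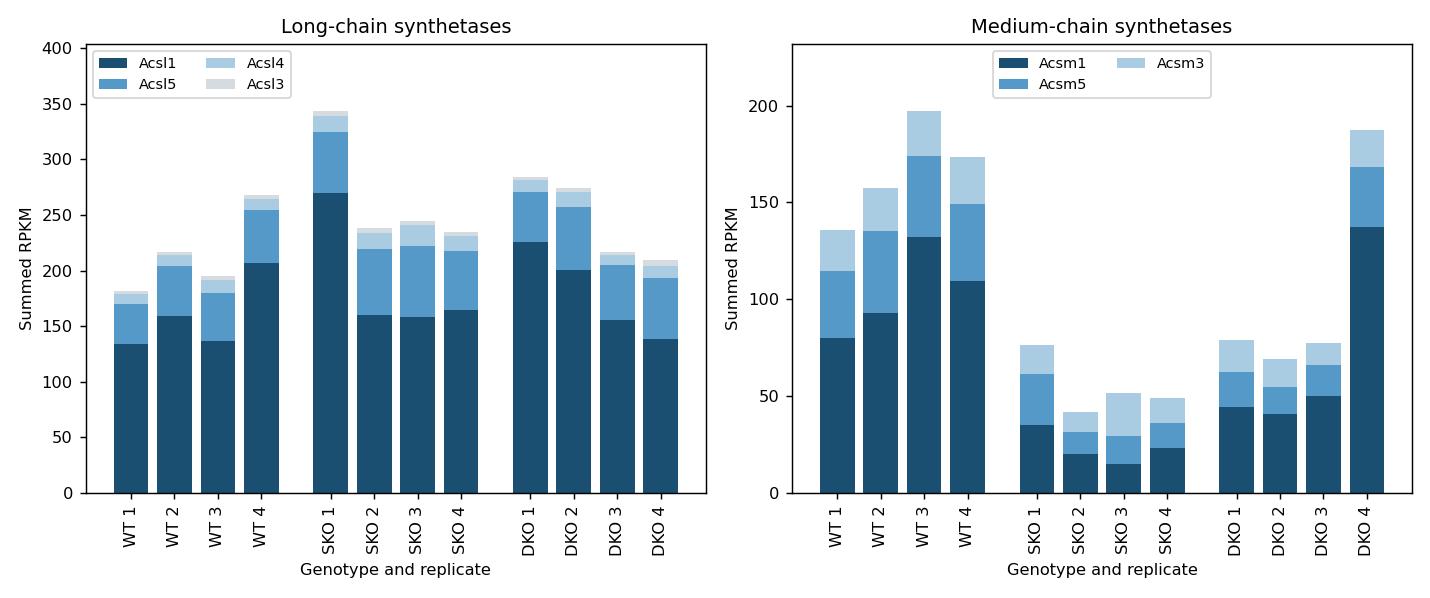
Summed RPKM of the 4 long-chain (left) and 3 medium-chain (right) synthetase genes in each liver, stacked by gene, with axes that start at 0. Acsl1 is the largest block of the long-chain sum in all livers, and the medium-chain sum has its lowest mean in the SKO livers and reaches the WT range in 1 DKO liver, replicate 4.

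The long-chain synthetases activate the common fatty acids of diet and adipose tissue. Acsl1 (ENSMUSG00000018796, chr8:46471037-46536051, plus strand) is the main isoform of liver and supplies both oxidation and triglyceride synthesis. It was at 134, 159.5, 137 and 207 RPKM in the WT livers, at 270.1, 160.2, 159 and 165 RPKM in the SKO livers and at 226, 201, 156 and 138 RPKM in the DKO livers. The 3 genotypes overlapped, and SKO replicate 1 lay far above the other SKO livers. The log2 fold change was 0.26 in SKO against WT, with an interval of -0.20 to 0.72, and 0.19 in DKO against WT, with an interval of -0.29 to 0.67. Neither passed (adjusted p = 0.389 and 0.597), and without SKO replicate 1 the difference between SKO and WT was 0.035. The difference between DKO and WT ran from 0.059 without DKO replicate 1 to 0.34 without WT replicate 4, and it was 0.29 without DKO replicate 4. The difference between DKO and SKO was -0.068 with an interval of -0.62 to 0.49, and 0.034 without DKO replicate 4. Acsl1 made up 73.7 ± 2.85% of the long-chain sum in WT, 70.2 ± 6.03% in SKO and 72.6 ± 5.47% in DKO.

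Acsl4 (ENSMUSG00000031278, chrX:142317993-142390535, minus strand) prefers arachidonic acid and other polyunsaturated acids. It was at 9.68, 10.4, 12.0 and 9.45 RPKM in the WT livers, at 14.4, 14.3, 19.6 and 12.9 RPKM in the SKO livers and at 11.1, 13.2, 8.90 and 10.6 RPKM in the DKO livers. Every SKO liver lay above every WT liver, with replicate 3 the highest, and the DKO livers overlapped with both other genotypes. Acsl4 rose by 0.57 on the log2 scale, or 1.49-fold, in SKO against WT (SE 0.15, adjusted p = 0.0112). Without SKO replicate 3, the SKO liver with high Xist counts, the rise of this X-linked gene was 0.44 (adjusted p = 0.0205). The difference of DKO from WT was 0.086 with an interval of -0.23 to 0.40. That of DKO from SKO was -0.48 with an interval of -0.88 to -0.084, which did not pass (unadjusted p = 0.0221, adjusted p = 0.695). Without DKO replicate 4 this difference was also -0.48 (adjusted p = 0.620).

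Acsl5 (ENSMUSG00000024981, chr19:55251938-55297720, plus strand) is found on the endoplasmic reticulum and mitochondria and feeds triglyceride synthesis in liver. It was at 35.9, 44.3, 42.7 and 47.8 RPKM in the WT livers, at 54.6, 59.1, 63.1 and 53.0 RPKM in the SKO livers and at 44.8, 57.1, 49.4 and 55.0 RPKM in the DKO livers. The SKO livers lay above the WT livers and the DKO livers overlapped with both. Acsl5 rose by 0.44 on the log2 scale, or 1.36-fold, in SKO against WT (SE 0.13, adjusted p = 0.0182). The call was lost without WT replicate 1, 2 or 3, at adjusted p-values of 0.0786, 0.0558 and 0.0572, with the difference at 0.35 to 0.45. For DKO against WT the difference was 0.28 with an interval of -0.016 to 0.59 (adjusted p = 0.192), and in DKO against SKO it was -0.15 with an interval of -0.49 to 0.18.

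Acsl3 (ENSMUSG00000032883, chr1:78657825-78707743, plus strand), which sits on the endoplasmic reticulum and on lipid droplets, was the least abundant in WT livers, with 156 to 327 counts. It was at 1.98, 2.28, 3.42 and 4.16 RPKM in the WT livers, at 4.37, 4.86, 3.34 and 4.10 RPKM in the SKO livers and at 3.04, 3.47, 2.45 and 5.78 RPKM in the DKO livers. All 3 genotypes overlapped, and DKO replicate 4 was the highest of the 12 livers. The log2 fold change in SKO against WT was 0.51 and did not pass (SE 0.23, adjusted p = 0.110), but without WT replicate 4, the highest WT liver, it was 0.70 and passed (adjusted p = 0.0380), and without WT replicate 1, the lowest, it was 0.34 (adjusted p = 0.284). The difference was 0.33 in DKO against WT and 0.022 without DKO replicate 4. In DKO against SKO it was -0.17 with an interval of -0.75 to 0.41, and without DKO replicate 4 it was -0.49 with an interval of -0.90 to -0.078 (unadjusted p = 0.0236, adjusted p = 0.583). Utp14b lies over Acsl3 on the same strand and had 33.1% as many counts, so reads of the pair may not be fully separable.

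Acss2 (ENSMUSG00000027605, chr2:155517948-155585724, plus strand) makes acetyl-CoA from acetate in the cytosol and nucleus and supplies lipid synthesis and histone acetylation. It was at 8.86, 9.94, 10.2 and 11.7 RPKM in the WT livers. It was at 5.41, 4.43, 3.64 and 4.66 RPKM in the SKO livers and at 6.85, 5.62, 5.13 and 11.6 RPKM in the DKO livers. The SKO livers lay below all WT livers, and DKO replicate 4 lay within the WT range while the other DKO livers lay below it. Acss2 fell by 1.15 on the log2 scale, or 2.22-fold, in SKO against WT (SE 0.14, adjusted p = 1.2e-04). The log2 fold change of DKO against WT was -0.46 and did not pass (SE 0.24, adjusted p = 0.237), and without DKO replicate 4 it was -0.78 and passed (adjusted p = 9.1e-04). That of DKO against SKO was 0.70 with an interval of 0.11 to 1.29 (unadjusted p = 0.0242, adjusted p = 0.701), and without DKO replicate 4 it was 0.37 with an interval of -0.0055 to 0.74. With SKO replicate 3 left out as well it was 0.27 (adjusted p = 0.862). Gss lies over Acss2 on the other strand and had 113% as many counts. Whether reads were counted by strand is not given in the sources used here, as also for Zdhhc6 over Acsl5 at 32.9% and Gm39079 over Acsm1 at 14.9%.

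Acss3 (ENSMUSG00000035948, chr10:106933517-107123668, minus strand), a mitochondrial synthetase for propionate and other short acids, was at 4.65, 5.25, 3.92 and 5.95 RPKM in the WT livers. It was at 4.92, 1.01, 6.01 and 3.10 RPKM in the SKO livers and at 3.35, 4.58, 2.59 and 4.93 RPKM in the DKO livers. The genotypes overlapped, and the SKO livers ran from 144 to 834 counts. The log2 fold change in SKO against WT was -0.38 with an interval of -1.24 to 0.47, and it was -0.065 without SKO replicate 2 and -0.70 without SKO replicate 3. It was -0.35 in DKO against WT with an interval of -0.82 to 0.12, and it was -0.19 without DKO replicate 3 and -0.49 without DKO replicate 4.

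Acsf2 (ENSMUSG00000076435, chr11:94557102-94601871, minus strand) was at 74.4, 84.7, 80.5 and 94.3 RPKM in the WT livers, at 87.6, 72.7, 73.5 and 59.6 RPKM in the SKO livers and at 63.9, 74.4, 60.6 and 70.6 RPKM in the DKO livers. The DKO livers lay below the WT livers, the nearest pair both at 74.4 RPKM, and the SKO livers overlapped with both. The log2 fold change of Acsf2 in SKO against WT was -0.17 (interval -0.48 to 0.14, adjusted p = 0.402), and it ran from -0.27 without SKO replicate 1 to -0.076 without SKO replicate 4. It was -0.30 in DKO against WT and did not pass (interval -0.58 to -0.014, adjusted p = 0.153). Acsm3, Acsm5 and Acsf2 were the genes whose DKO and WT livers did not overlap, all lower in DKO, as was so for 8.89% of all genes tested.

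DKO replicate 4 lay outside the range of the other 3 DKO livers for Acsl1, Acsl3, Acsm1, Acsm3, Acsm5, Acss2 and Acss3, which makes 7 of the 10 genes, and it lay within the WT range for Acsl1, Acsl4, Acss2 and Acss3. For Acsl4, Acsm1, Acsm3, Acsm5, Acss2 and Acss3 it was the DKO liver closest to the WT mean. For Acsl4, Acsl5 and Acsf2 it lay among the other DKO livers. Its levels were counted in the DKO mean in all main values.

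**Figure D4:**
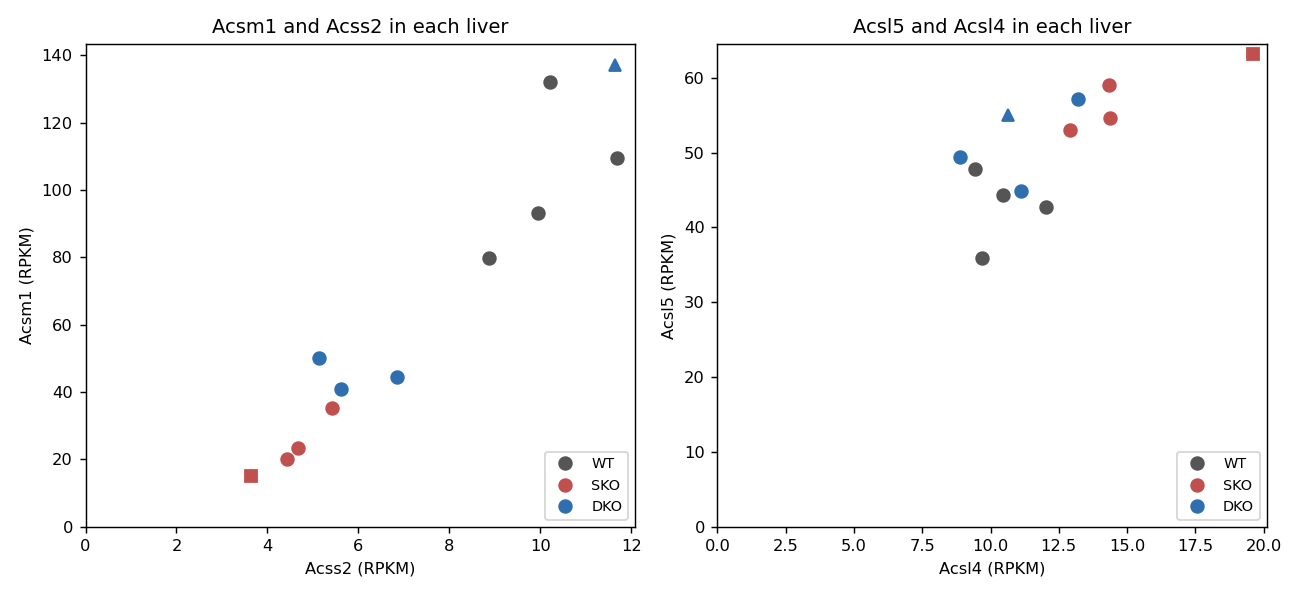
Acsm1 against Acss2 (left) and Acsl5 against Acsl4 (right) in each of the 12 livers, in RPKM on linear axes that start at 0, colored by genotype, with a triangle for DKO replicate 4 and a square for SKO replicate 3. On the left the SKO livers have the lowest means of both genes, and DKO replicate 4 is within the WT range of Acss2 and above that of Acsm1, and on the right the SKO livers are at the upper end of Acsl4.

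Among 9792 other genes of mean CPM of at least 5, the pattern of Acsm1 over the 12 livers was most like those of D130020L05Rik, Keg1 and Pbld2, with Pearson's r of log2 CPM of 0.971, 0.970 and 0.968, and 0.965, 0.980 and 0.967 without DKO replicate 4. The pattern of Acsm5 was most like those of Spout1, Rtp3 and Ppp4r4, at r of 0.982, 0.971 and 0.968. The pattern of Acss2 was most like those of Ppp4r3a, Acsm1 and Sardh, at r of 0.969, 0.966 and 0.966. The livers of a genotype share their alleles, and all 12 share a scaling, so r is a description of likeness with no test.

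Some hepatocyte markers were also lower in SKO than in WT livers. The sum of 8 hepatocyte markers was 82250 to 101700 CPM in WT, 46520 to 78210 CPM in SKO and 49140 to 104900 CPM in DKO livers, the last value being DKO replicate 4. Of these 8 markers, 4 were lower in SKO than in WT livers (Alb, Ttr, Serpina1a and Cyp2e1), 0 were higher and none was at 0, with Alb at 59283 ± 6088 CPM in WT and 31691 ± 10518 CPM in SKO livers (SD, n = 4). In whole liver, fewer hepatocytes and less of an RNA per hepatocyte cannot be told apart, and the part of these markers in the falls of Acsm1, Acsm5 and Acss2 was not tested. The other 4 did not pass, with log2 fold changes of -1.001 for Tat, -0.069 for Hnf4a, -0.026 for Cps1 and 0.23 for Apoa1. The 9 stellate cell markers summed to 209 to 254 CPM in WT and 288 to 394 CPM in SKO livers, with 1 of 9 higher, Dcn. The 6 cholangiocyte markers summed to 28.0 to 33.6 CPM in WT and 7.38 to 14.3 CPM in SKO livers, with Sox9 and Spp1 lower. The 10 macrophage markers summed to 228 to 465 CPM in WT, 210 to 518 CPM in SKO and 131 to 465 CPM in DKO livers, with Cd68 higher in SKO and the other 8 tested not called. Markers of endothelial cells at 207 to 453 CPM and of lymphocytes at 1.66 to 5.16 CPM in WT livers had 0 calls in any of the comparisons. All 8 endothelial markers were tested. Of 8 lymphocyte markers only 2 were tested in SKO against WT, 1 in DKO against WT and 3 in DKO against SKO, so their 0 calls say little. The 5 erythroid markers summed to 76.7 to 138 CPM in WT and 77.0 to 242 CPM in SKO livers, with Hba-a1 higher and Alas2 lower. Of 4 adipocyte markers Lep was at 0 in all genotypes, Plin1 was at 0 in WT livers, and Cidec, which also coats hepatocyte lipid droplets, was at 22.9 CPM in WT and 459 CPM in SKO livers. In DKO against WT 1 of 8 hepatocyte and 1 of 9 macrophage markers tested were lower and 0 higher, while 10.5% of all genes passed. Of 4 cholangiocyte and 3 erythroid markers tested Sox9 and Alas2 were lower, Cidec was higher, and 0 of 9 stellate cell markers passed. With DKO replicate 4 left out, 5 hepatocyte markers were lower and 0 higher, and 7 macrophage markers were lower and 1 higher, while 35.9% of all genes passed, 17.5% lower. The part of these other lists in the synthetase values was not tested.

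The other acyl-CoA synthetases included 9 tested genes of 16 listed, of which 3 were higher and 2 lower in SKO against WT. Slc27a4 and Slc27a1, fatty acid transport proteins with synthetase activity, rose by 1.62 and 1.74 on the log2 scale (adjusted p = 3.0e-05 and 0.00365). Acsf3, the malonyl-CoA synthetase of mitochondria, rose by 0.90 (adjusted p = 2.4e-04). Slc27a5, the bile acid CoA ligase, fell by 1.07 (adjusted p = 3.0e-04), and Acsm2 fell by 1.42 (adjusted p = 0.0346) from low levels. The median over these 9 genes was 0.22. Against WT the DKO livers had 1 higher and 0 lower, while 10.5% of all genes passed. Without DKO replicate 4 it was 3 and 2, while 35.9% of all genes passed.

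Enzymes that undo the work of the synthetases moved mostly upward in SKO livers. Of 12 acyl-CoA thioesterases tested, which split acyl-CoA into free acid and CoA, 8 were higher and 1 lower than in WT, with a median log2 fold change of 1.05. Acot2, the mitochondrial long-chain enzyme, rose by 4.89, Acot1, its cytosolic counterpart, by 3.39, and Acot9 by 2.42 (adjusted p = 2.4e-06, 1.8e-06 and 7.8e-05). Acot12, which acts on acetyl-CoA, rose by 0.63 (adjusted p = 0.00126), and Acot11 fell by 1.84 (adjusted p = 0.00116). The same list in DKO against WT had 4 higher and 0 lower, while 6.06% of all genes were higher and 4.39% lower. Without DKO replicate 4 it was 6 and 2, while 35.9% of all genes passed, 17.5% lower. In DKO against SKO the median was -0.40 with 0 calls, where 0.0209% of all genes passed.

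Of 9 genes tested for carnitine entry and the first step of beta-oxidation, 6 were higher in SKO livers than in WT and 1 was lower, Cpt2, which is the deleted gene. Cpt1b rose by 2.89, Acadl, a long-chain dehydrogenase, by 0.92 and Acadvl, a very long-chain dehydrogenase, by 0.57 on the log2 scale (adjusted p = 5.1e-04, 6.1e-04 and 0.0128). Cpt1b was at only 0.512 CPM in WT and 3.73 CPM in SKO livers. Cpt1a, at 979 and 1322 CPM, rose by 0.45 (adjusted p = 0.028). The control label names floxed Cpt1a and Cpt1b as well, and the SKO label does not say which alleles of these genes the mice carried. Of 15 genes tested for esterification of acyl-CoA, 6 were higher and 1 lower in SKO livers. Gpat3 and Gpam, which start glycerolipid synthesis, rose by 1.83 and 0.69, and Dgat1, which makes triglyceride, rose by 0.82 (adjusted p = 7.5e-06, 0.00194 and 3.0e-04). Agpat2, the next step after Gpam, fell by 0.85 (adjusted p = 0.00167). Of 7 acyl-CoA binding proteins tested, 3 were higher (Acbd3, Acbd6 and Eci2, an enoyl-CoA isomerase with a binding domain) and 2 lower (Acbd4 and Acbd5). For DKO against WT the carnitine list had 2 higher and 1 lower, the esterification list 2 and 1, and the binding list 1 and 1. With DKO replicate 4 left out these lists had 4 and 1 of 9, 4 and 2 of 15, and 2 and 2 of 7. In that setting 35.9% of all genes passed, 17.5% lower, against 10.5% with this liver kept.

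Cytosolic acetyl-CoA, the product of Acss2, is the substrate of fatty acid and sterol synthesis. Of 11 genes tested for cytosolic acetyl-CoA use and lipogenesis, 7 were lower and 2 higher than in WT, with a median log2 fold change of -1.20. Acly, which makes cytosolic acetyl-CoA from citrate, fell by 1.20, Elovl6, a fatty acid elongase, fell by 1.67, and Thrsp, a lipogenic cofactor, fell by 3.84 (adjusted p = 1.0e-04, 2.3e-04 and 2.6e-06). Acacb, the acetyl-CoA carboxylase of the mitochondrial surface, rose by 2.25, and Me1, the NADPH-producing malic enzyme, by 1.08 (adjusted p = 3.0e-06 and 4.2e-04). Of 17 sterol synthesis genes tested, 7 were lower and 0 higher, with a median of -0.62. Insig1, a sterol sensor partner, fell by 1.59 (adjusted p = 0.00128). In DKO against WT the lipogenesis list had 2 higher and 1 lower and the sterol list 0 calls, while 4.39% of all genes were lower. Without DKO replicate 4 the lipogenesis list had 2 higher and 6 lower and the sterol list 9 lower, while 17.5% of all genes were lower.

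Glycine conjugation is a fate of benzoyl-CoA and similar products of the Acsm enzymes. Of 4 genes tested in its list, 2 were lower and 0 higher in SKO than in WT livers, and of the 3 acyltransferases among them 1 was lower. Keg1, a glycine N-acyltransferase-like gene, fell by 3.48 (adjusted p = 2.9e-04). Hao1, which fell by 3.53 (adjusted p = 7.1e-06), is a glycolate oxidase and does not itself conjugate glycine. Glyat, the main acyltransferase of the list, was at -0.018 (adjusted p = 0.962), and Gm4952 was at 0.28 (adjusted p = 0.143). The DKO livers against WT gave 0 calls, and without DKO replicate 4 there were 2 lower, while 17.5% of all genes were lower. In DKO against SKO each of the 8 lists named had 0 calls, with and without DKO replicate 4. Only 0.0209% and 0.103% of all genes passed there, so 0 calls lies near the share of all genes.

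**Figure D5:**
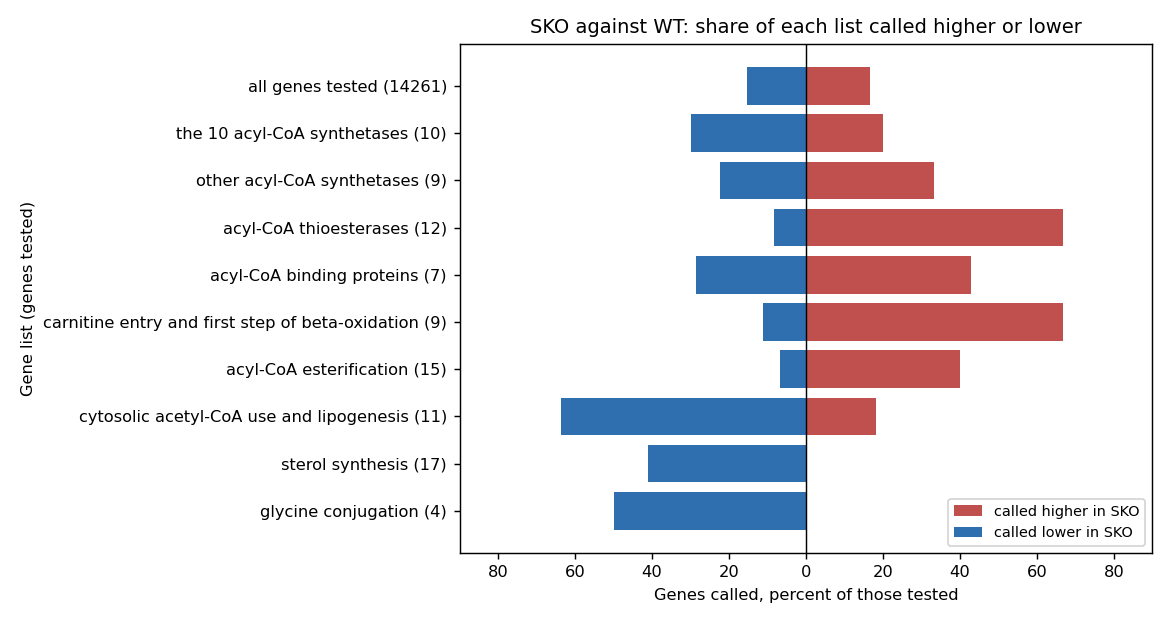
Share of each gene list called higher (right) or lower (left) in SKO against WT livers at an adjusted p-value under 0.05, as a percent of the genes tested, whose number is in brackets. The thioesterase and carnitine lists have their longer bars on the higher side and the lipogenesis, sterol and glycine lists on the lower side, where the glycine list counts Hao1, against 16.7% higher and 15.4% lower over all genes.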

How the data were processed

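Whole livers of 24 h-fasted mice were sequenced by the authors, with RNA from TRIzol and RNeasy and libraries by Novogene. Per Ensembl gene, the authors deposited raw counts and a table of FPKM, whose values are the same counts per kilobase of the listed gene length divided by 1 constant per liver. The submitters' processing notes name HISAT2, GRCm38 and mm10, and the counting program and annotation release are not given in the sources used here. Only 1485 of 52073 gene identifiers had the start of the GRCm38 annotation, so positions in the text are those of GENCODE M21 on GRCm38, matched by identifier, and no coordinate of the count table is printed. The authors also deposited tables of their own comparisons, with log2 fold changes and p-values, which were not used.

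Livers were grouped by their genotype labels. Each pair of genotypes was compared on its 8 livers with edgeR 4.0.16 in R 4.3.3 by TMM scaling, filterByExpr and the quasi-likelihood test, two-sided, with Benjamini-Hochberg adjustment over all genes tested. The threshold was an adjusted p-value of 0.05, the standard error is the log2 fold change over the root of F, and intervals are at 95%. Levels between genes were counts scaled by gene length and TMM library size (RPKM) over 12 livers. The test was checked on simulated counts. Depth and its limit of 3 counts cover counting error only. Alternatives were RLE scaling, no filter, DESeq2 1.42.0, all 12 livers in the fit, a replicate block and limma 3.58.1 on log2(FPKM + 1). Others were only livers with over 100 Y-linked counts, called the Y-linked livers, and each liver left out. List counts without DKO replicate 4 were added after seeing the data.

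The genes and lists were chosen with earlier results of these data known. The text names all 10 synthetase genes, up to 5 genes of smallest p-value from each other list in the comparison described, genes used to check labels, and the 3 genes most like Acsm1, Acsm5 and Acss2. Hnf4a, Cps1, Apoa1, Apoa4, Cpt1a, Lep, Plin1, Utp14b, Gss, Zdhhc6 and Gm39079 were named outside that rule after their values were seen.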

Additional observations from a re-analysis of the deposited data

Results flagged for a closer look

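With 4 livers per genotype and 30 sets of levels examined, a liver far from the rest was found in 2, and chance alone flags about 1 set in 20. Acsl1 in SKO replicate 1 was at 270.1 RPKM, while the other SKO livers were at 159 to 165 RPKM. Acsm1 in DKO replicate 4 was at 137 RPKM, while the other DKO livers were at 40.8 to 50.1 RPKM. That liver also had no Y-linked counts, Atf3 at 0.271 CPM and hepatocyte markers summing to 104900 CPM, and their part in its Acsm1 level was not tested.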

How the results depend on the processing

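Of the settings tried, the count of synthetase genes called in SKO against WT livers stayed at 5 or 6, and it was 4 to 6 when each liver was left out. In DKO against WT the count was 1, but 2 with DESeq2, 4 with only the livers that had Y-linked counts, and 0 to 4 when each liver was left out. In DKO against SKO it was 0, and 1 with DESeq2. Over all genes, SKO against WT gave 4576 calls, 3951 to 4856 under the other settings and 3617 to 4711 when each liver was left out. DKO against WT gave 1510 calls, but 2635 with DESeq2, 691 with the replicate block, 5253 with the Y-linked livers and 244 to 5253 when each liver was left out. DKO against SKO gave 3 calls, 35 without the filter, 97 with DESeq2, 21 with the Y-linked livers and 0 to 15 when each liver was left out. For single genes the alternatives changed no sign in SKO against WT, where 7 values gained and 3 lost a call, counting once the pairs of settings that leave out the same liver. In DKO against WT 4 gained and 7 lost a call, and 1 changed sign, Acsl4, at -0.012 to 0.18 when each liver was left out.

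Sign changes in DKO against SKO, where these values did not pass, were those of Acsm3 at -0.015 without the filter and of Acsm5 at -0.080 with the Y-linked livers. When each liver was left out Acsl1 was at -0.20 to 0.16, Acsm3 at -0.13 to 0.27, Acsm5 at -0.020 to 0.64 and Acss3 at -0.28 to 0.36. The cause of these changes was not tested.

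Replicate numbers do not pair the livers, since same-numbered livers correlated at -0.34 to 0.088 after removal of genotype means. With the replicate block, which added Acsm3 in SKO against WT (-0.62, adjusted p = 0.0269), 6, 1 and 0 of the 10 genes were called in SKO against WT, DKO against WT and DKO against SKO, beside 4111, 691 and 0 of all genes. Depth limits the statements most for Acss3 and Acsl3, with 144 to 834 counts per liver.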
